A study of Homo sapiens with 24 samples.

Results

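Cholesterol synthesis, uptake and export were followed through 29 genes, which were found by their listed symbols among the 21831 genes of each deposited table. The set held 19 enzymes that build cholesterol and related isoprenoids from acetyl-CoA, 5 genes of the SREBP2 system (SREBF2, SCAP, INSIG1, INSIG2 and STARD4) and 5 genes of the liver X receptors, LXR (NR1H2, NR1H3, ABCA1, ABCG1 and MYLIP). The cells were HBL-1, an established human lymphoma line of the activated B-cell-like class of diffuse large B-cell lymphoma, given DMSO (control) or 20 µM dimethyl fumarate (DMF) in DMSO. DMF, a small ester, modifies cysteines of proteins. Cells were taken at 6, 12, 24 and 48 h, with 3 libraries for each of the 8 groups and 24 in all, and the medium of every group was RPMI-1640 containing fetal calf serum (20%), penicillin and streptomycin, and Plasmocin, an antibiotic against mycoplasma. All groups were of 1 cell line. The labels number the replicates but do not say that they were separate cultures, so p-values measure the spread between these libraries, which may be technical.

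Cholesterol is made in the endoplasmic reticulum and the cytosol. Acetyl-CoA is turned into mevalonate, mevalonate into isoprenoid units, and these into squalene, lanosterol and then cholesterol. SREBP2, the transcription factor encoded by SREBF2, is held in the endoplasmic reticulum while sterols are plentiful, because its escort protein SCAP is then bound to INSIG1 or INSIG2. When sterols run low, SCAP carries SREBP2 to the Golgi, where proteases free the part that enters the nucleus and activates the synthesis enzymes, INSIG1 and SREBF2 itself. The liver X receptors act in the opposite direction: they bind oxidised sterols and activate the export pumps ABCA1 and ABCG1 and the ubiquitin ligase MYLIP, which sends lipoprotein receptors for decay.

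The sequences before the start sites of 5 members are printed because these genes carry the results that follow. SREBF2 encodes the factor itself, INSIG1, FDPS and LSS were lower with DMF at 48 h, and IDI1 was higher with DMF at all 4 times. They come from RefSeq on GRCh38.p14, read 5′ to 3′ on the strand of the gene, begin 250 bases before the RefSeq start and stop before the first base that GENCODE v29 gives to the gene. They lie at chr22:41832855-41833078 on the plus strand for SREBF2, chr7:155297628-155297775 on the plus strand for INSIG1, chr1:155308616-155308747 on the plus strand for FDPS, chr21:46228825-46229024 on the minus strand for LSS, and chr10:1049171-1049369 on the minus strand for IDI1, at 1 of its 3 listed starts. Capitals mark the CCAAT box, which reads ATTGG on the other strand, and in SREBF2 also the core of a sterol element, TCACNCCAC, as it is commonly written.
SREBF2: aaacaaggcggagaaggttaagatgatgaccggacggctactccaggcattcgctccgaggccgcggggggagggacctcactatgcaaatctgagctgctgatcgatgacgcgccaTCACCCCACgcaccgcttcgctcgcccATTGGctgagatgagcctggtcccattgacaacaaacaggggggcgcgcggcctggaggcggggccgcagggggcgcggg
INSIG1: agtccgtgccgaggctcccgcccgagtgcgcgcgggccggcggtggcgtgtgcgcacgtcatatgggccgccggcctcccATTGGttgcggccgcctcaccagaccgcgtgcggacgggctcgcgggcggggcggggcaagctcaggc
FDPS: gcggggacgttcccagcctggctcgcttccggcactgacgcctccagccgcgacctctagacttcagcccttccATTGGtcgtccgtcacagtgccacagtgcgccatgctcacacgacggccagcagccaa
LSS: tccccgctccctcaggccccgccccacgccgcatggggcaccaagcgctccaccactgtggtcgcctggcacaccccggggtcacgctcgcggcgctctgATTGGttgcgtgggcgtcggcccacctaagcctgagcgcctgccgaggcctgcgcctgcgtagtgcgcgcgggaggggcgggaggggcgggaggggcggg
IDI1: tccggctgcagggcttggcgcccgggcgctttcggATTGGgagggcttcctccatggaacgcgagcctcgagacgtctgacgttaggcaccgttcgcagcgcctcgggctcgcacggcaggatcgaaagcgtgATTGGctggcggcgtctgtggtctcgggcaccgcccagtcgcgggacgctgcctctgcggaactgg

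The sterol element core stood 133 to 125 bases before the start of SREBF2, with an inverted CCAAT box 106 to 102 bases before it. The other printed windows held the CCAAT box in the same inverted reading: once in INSIG1, FDPS and LSS, and at 215 and 117 bases before the start in IDI1. RefSeq windows were listed for 25 of the 29 members, at 36 starts, and the motifs were searched on both strands in the 250 bases before each start. CCAAT was found at 21 of the 36 starts (58.3%), against 32% of all 35116 listed starts. The GC box GGGCGG was found at 31 of 36 (86.1%), against 42.6% of all starts. The core TCACNCCAC was found at 1 of 36 (2.78%, SREBF2), against 0.883% of all starts. None of the marked matches overlapped in the printed windows, and a match is a string of letters, not a measured binding site. For the sterol element only the string TCACNCCAC was searched. Elements written otherwise would have been missed, so its absence at a start does not show that no sterol element is there.

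Libraries held between 2870751 and 40906596 expected counts, the lowest total being that of replicate 1 of DMF at 48 h and the next 23097873. Replicate 3 of 12 h differed from all others in both arms: in these libraries the count-weighted mean of the effective length was 1902 to 2121 bases against 2850 to 3157 bases in the other 22, and ribosomal protein genes took 20.4% to 25.9% of their counts against 8.6% to 13.7%. Among the members, levels in replicate 3 of control at 12 h were 0.229 to 5.19 times the mean of replicates 1 and 2, and 14 of 28 were more than 2-fold off. Counts of genes called with DMF against control are therefore given with all 24 libraries and then with the 22 that leave out these libraries. B-cell genes marked the line in every library (CD79A at 1353 to 3308 TPM, a level scaled for gene length and library size, and CD79B at 1432 to 4478), while the T-cell gene CD3E did not exceed 0.07 TPM and was at 0 in 16 of 24 libraries. The myeloid genes CD14 and LYZ reached at most 0.37 and 0.73 TPM, the fibroblast gene COL1A1 0.11 and the epithelial gene EPCAM 3.9. The summed level of 7 markers of other cell types was 6.16 to 7.93 TPM in control and 12.3 to 13.2 TPM in DMF libraries at 48 h, and the highest single value among them was 10 TPM, of CD68, a lysosomal protein of macrophages. The summed level of 7 B-cell markers was 4034 to 4127 TPM in control and 6260 to 6521 TPM in DMF libraries at 48 h, and 4452 to 4474 against 3805 to 3831 TPM at 6 h. Ribosomal RNA took 0.73% to 0.79% of counts in control and 1.29% to 1.45% in DMF at 48 h, and 1.0% to 1.09% against 1.72% to 1.89% at 6 h. The part of these differences in the results was not tested.

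The members spanned a wide range of levels. Per transcript length, the highest means in control at 6 h were those of FDPS at 160 ± 2.33 TPM (SD, n = 3), FDFT1 at 122 ± 3.62 TPM and LSS at 119 ± 0.815 TPM, with SREBF2 next at 90 ± 0.335 TPM. FDPS makes farnesyl diphosphate, FDFT1 joins 2 farnesyl units into squalene and LSS closes squalene epoxide into lanosterol. The levels of FDFT1 (118 to 125 TPM) and LSS (119 to 120 TPM) overlapped. At the other end stood MYLIP at 3.63 ± 0.456 TPM, NR1H3 at 2.77 ± 0.271 TPM and ABCG1 at 0.373 ± 0.0987 TPM. Of the receptors, NR1H2 (LXR beta) was at 55.6 ± 1.1 TPM and NR1H3 (LXR alpha) far below it. ABCA1 had 18 counts in all 24 libraries together, at most 3 in a library and 0 in 9 libraries, and was the only member below the filter on low counts. For a library at 0, 3 counts of its total is the level that could have been missed, for example 0.13 CPM in replicate 2 of control at 6 h (counting error only). No comparison could be made for it.

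**Figure D1:**
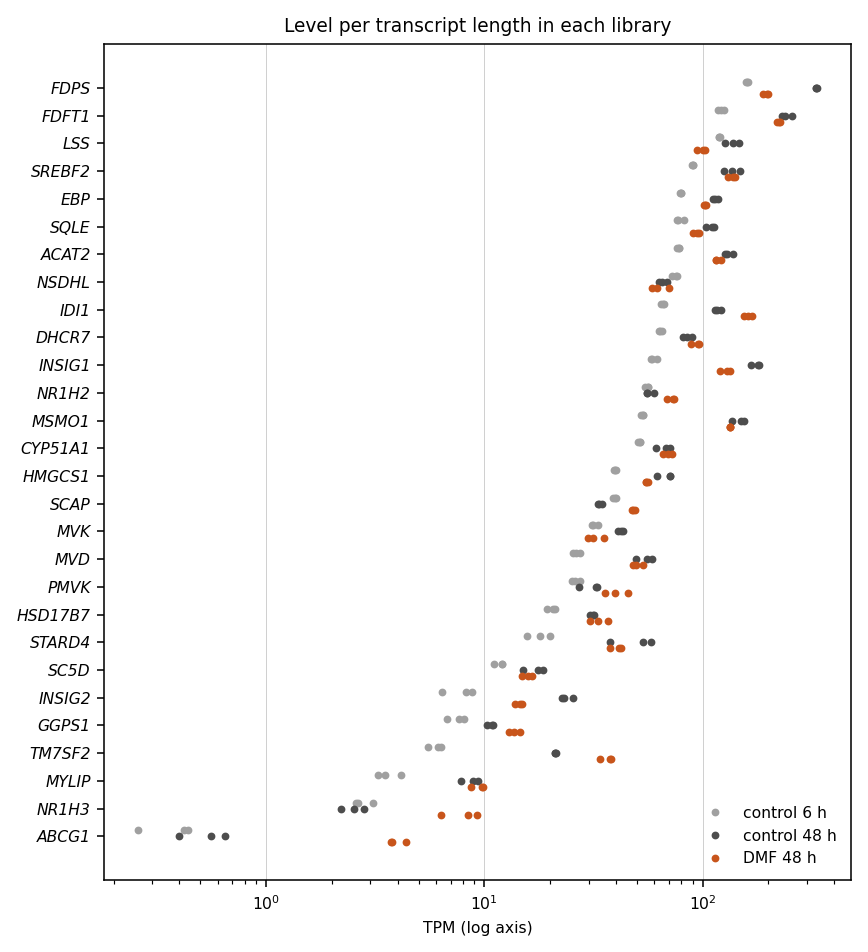
Deposited TPM of 28 members (log axis) in the 3 libraries each of control at 6 h, control at 48 h and DMF at 48 h, 1 point per library, ordered by the mean in control at 6 h; ABCA1, at no more than 0.01 TPM, is left out. FDPS is highest at 158 to 162 TPM in control at 6 h, and ABCG1 lowest at 0.26 to 0.44 TPM there and 3.72 to 4.37 TPM in DMF at 48 h.

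DMF was compared with control at each time on expected counts, given as CPM, which are counts scaled to the library total with TMM factors, in edgeR, and a gene was called at a Benjamini-Hochberg adjusted p under 0.05 of its quasi-likelihood test over all 13419 genes. In bulk RNA, a lower share of a transcript can mean fewer cells that hold it or less of it per cell, and these cannot be told apart. At 6 h, 3 of 28 members were called higher (5.03% of all genes were) and 0 lower (5.59%; also 0 at an unadjusted p under 0.05 and by DESeq2). Calls at 12 h were 4 higher (7.37% of all genes) and 1 lower (9.95%). Calls at 24 h were 2 higher (7.81%) and 2 lower (6.6%). At 48 h, 4 were higher (13.3% of all genes) and 6 lower (12.5%). In the 22 libraries, 13, 9, 10 and 6 members were called higher at the 4 times (23.8%, 24.1%, 29.5% and 33.6% of all genes). In the same fit 1, 8, 8 and 19 were called lower (23.4%, 23.8%, 27.9% and 30.9%). Of the 28 members, 11 were called at some time and 17 at none in all 24 libraries.

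The median log2 fold change of the 28 members was 0.14 at 6 h, -0.03 at 12 h, 0.06 at 24 h and -0.32 at 48 h. That of all genes was between -0.05 and 0.02. At 48 h, all 3 DMF libraries lay below all 3 controls for 17 of 28 members (30.2% of all genes) and above them for 6 (30.6%). On TPM, which are not rescaled for the composition of the library, the median of all genes moved to 0.17 at 48 h and -0.10 at 6 h, and that of the members to -0.08 and -0.00, so at these times the members' median lay on the same side of that of all genes on both scales. With TPM (limma on log2(TPM + 1)), 1, 1, 4 and 4 members were higher at the 4 times and 0, 3, 1 and 2 lower. The share of all genes called on TPM was not counted, so these numbers cannot be set against it. This fit held all 24 libraries, and its errors include the spread of the replicate 3 libraries of 12 h. Of the 22 calls on counts over the 4 times, 5 also passed on TPM, those of FDPS and NR1H3 at 48 h and of ABCG1 at 6, 24 and 48 h, and none of the others had the opposite sign there. At 12 h same-numbered libraries of control and DMF deviated together, but without replicate 3 the correlation was 0.039. Whether the numbers pair the libraries beyond replicate 3 is therefore not shown. A fit of 12 h alone with the replicate block called 2 higher (IDI1 and SCAP) and 5 lower (MVK, FDPS, LSS, TM7SF2 and NR1H3). In it DHCR7 and ABCG1 were no longer called.

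**Figure D2:**
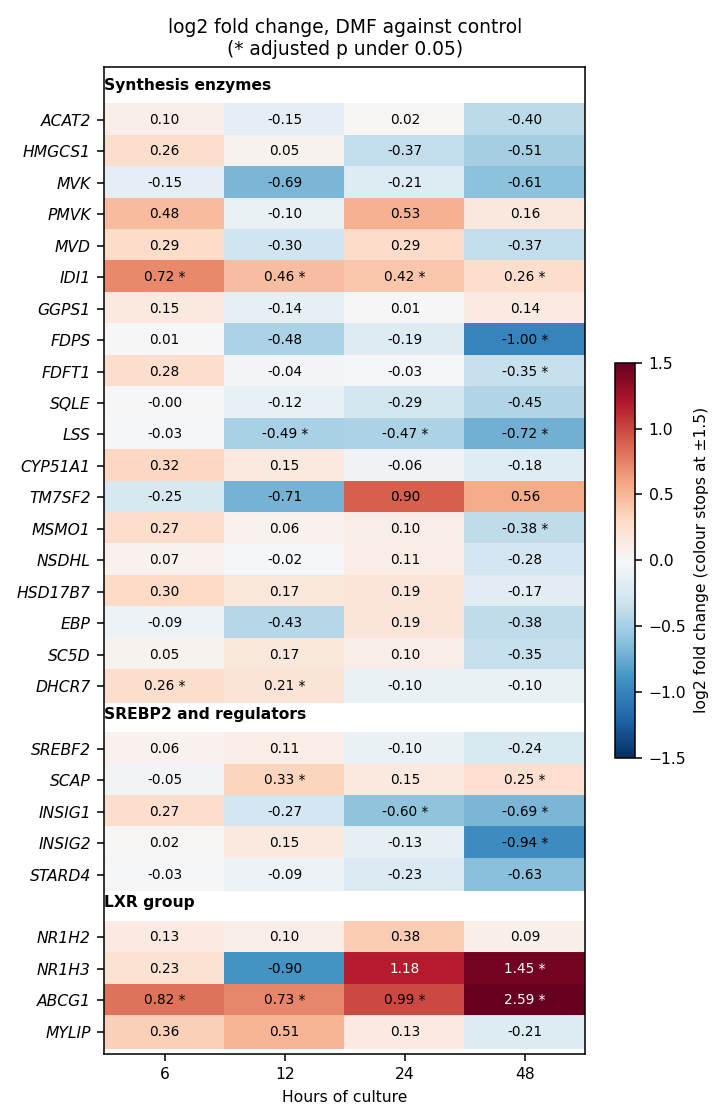
Log2 fold change of DMF against control for the 28 tested members (rows, by role) at each time (columns), with the value in each cell and a star where the adjusted p was under 0.05. IDI1 and ABCG1 are starred at all 4 times, LSS from 12 h on, and most synthesis enzymes are below 0 at 48 h.

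Among the 19 synthesis enzymes, IDI1 was higher with DMF throughout while LSS was lower from 12 h on, and at 48 h FDPS, FDFT1 and MSMO1 were lower as well. Over the 4 times 2, 2, 1 and 1 enzymes were called higher and 0, 1, 1 and 4 lower (at 6 h 0 were lower also at an unadjusted p under 0.05 and by DESeq2). Of all genes, 5.03%, 7.37%, 7.81% and 13.3% were called higher and 5.59%, 9.95%, 6.6% and 12.5% lower. In the 22 libraries 9, 5, 6 and 3 were higher and 1, 5, 5 and 14 lower. The shares of all genes there were 23.8%, 24.1%, 29.5% and 33.6% higher and 23.4%, 23.8%, 27.9% and 30.9% lower. The median log2 fold change of the enzymes was 0.15, -0.10, 0.02 and -0.35 at the 4 times; on TPM it was 0.00 at 6 h and -0.12 at 48 h.

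IDI1 is the isomerase that interconverts isopentenyl and dimethylallyl diphosphate, the units from which all longer isoprenoids are built. At 6 h it stood at 86.9, 88.1 and 85 CPM in the control libraries and 138, 144 and 146 CPM in the DMF libraries. The DMF libraries were all above the controls, by 1.65-fold (log2 0.72 ± 0.06 SE, adjusted p = 4.5e-07, edgeR). At 12 h the values were 85.3, 83.9 and 82.8 CPM against 112, 114 and 121 CPM with DMF, and at 24 h 110, 113 and 108 CPM against 155, 141 and 147 CPM. At 48 h control had reached 158, 167 and 152 CPM and DMF 188, 193 and 190 CPM, and again the groups did not overlap. The log2 fold changes at 12, 24 and 48 h were 0.46, 0.42 and 0.26, each with an SE of 0.06 (adjusted p = 5e-05, 0.00015 and 0.0048, edgeR). Without replicate 2 of DMF at 48 h the last of these was 0.23 and no longer passed. None of the 4 passed on log2(TPM + 1), where the values were 0.55, 0.51, 0.36 and 0.46 (adjusted p = 0.15, 0.2, 0.42 and 0.14, limma). That fit held the replicate 3 libraries of 12 h, at 26.9 TPM in control and 49.9 TPM with DMF. The others of 12 h were at 59.5 to 63.3 and 77.1 to 77.7 TPM. At 48 h the groups did not overlap in TPM (114 to 122 in control, 155 to 168 with DMF).

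LSS makes lanosterol, the first sterol of the pathway. At 6 h control had 263, 269 and 255 CPM and DMF 253, 258 and 262 CPM, which overlapped (log2 fold change -0.03 ± 0.06). At 12 h all DMF libraries lay below control, with 146, 148 and 153 CPM against 204, 213 and 209 CPM, and in this gene the CPM of the replicate 3 libraries lay beside the others. At 24 h the values were 168, 179 and 164 CPM against 233, 241 and 235 CPM, and at 48 h 202, 203 and 193 CPM against 314, 339 and 330 CPM. LSS was thus lower with DMF than in control at these times, with log2 fold changes of -0.49, -0.47 and -0.72 (SE 0.06 each, adjusted p = 2e-05, 3.6e-05 and 9.4e-08, edgeR), the last a 1.64-fold difference. None of these passed on log2(TPM + 1), at -0.54, -0.62 and -0.46 (adjusted p = 0.35, 0.21 and 0.27, limma). That fit held the replicate 3 libraries of 12 h, which lay apart in TPM for this gene. They were at 32.3 TPM in control and 29.6 TPM with DMF, against 91.5 to 94.3 and 53.7 to 56.4 TPM in the others of 12 h. At 48 h the groups did not overlap in TPM (126 to 146 in control, 94.5 to 102 with DMF).

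FDPS supplies farnesyl diphosphate for sterols and for the lipid anchors of small GTPases. At 48 h it was at 231, 256 and 224 CPM in control and 120, 114 and 121 CPM in DMF libraries. It was lower with DMF by 1.0 ± 0.26 on the log2 scale (adjusted p = 0.0074, edgeR). At 6 h the values of 105 to 110 CPM in control and 106 to 111 CPM in DMF overlapped. At 12 h replicate 3 stood far above the others in both groups, at 239 and 156 CPM, against 101 and 102 CPM in the other controls and 79.7 and 82.2 CPM in the other DMF libraries. With the block at 12 h FDPS was called lower (-0.43), and in the 22 libraries it was called lower at 12 and 24 h as well (-0.32 and -0.19). Its value at 48 h passed on log2(TPM + 1) too, at -0.76 (adjusted p = 5e-08, limma). Of 8 annotated FDPS pseudogenes 1 was listed in the tables, so reads may have been divided between such copies.

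FDFT1 and MSMO1 moved less. FDFT1 was at 311, 316 and 275 CPM in control and 243, 233 and 234 CPM in DMF libraries at 48 h (log2 -0.35 ± 0.09, adjusted p = 0.0088, edgeR). Without replicate 2 of control, or replicate 2 or 3 of DMF, at 48 h it was -0.33, -0.35 and -0.36 and did not pass. MSMO1 is a methyl sterol oxidase that acts in the removal of methyl groups from the sterol ring. It was at 193, 188 and 183 CPM in control against 147, 142 and 145 CPM with DMF at 48 h (log2 -0.38 ± 0.10, adjusted p = 0.0069, edgeR), without overlap. FDFT1 was at -0.12 and MSMO1 at -0.14 on log2(TPM + 1), and neither passed (adjusted p = 0.78 and 0.82, limma).

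DHCR7, the reductase of the last step to cholesterol, was the other enzyme called early. At 6 h it was at 98.6, 95.2 and 94.7 CPM in control and 120, 114 and 112 CPM in DMF libraries, and all DMF libraries lay above control (log2 0.26 ± 0.07, adjusted p = 0.018, edgeR). At 12 h it was at 72.8, 70.9 and 65.8 CPM against 81.2, 80 and 81.4 CPM (log2 0.21 ± 0.07, adjusted p = 0.045, edgeR). At 24 and 48 h the groups overlapped and the log2 fold change was -0.10 at both. The call at 6 h was lost without replicate 2 or 3 of control (0.26 and 0.27) or replicate 1 of DMF (0.24) at that time. The call at 12 h was lost without any of 20 of the 24 libraries (0.16 to 0.23), and under the replicate block (0.21). Neither call passed on log2(TPM + 1) (0.12 and 0.25).

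The remaining 13 enzymes were not called with DMF at any time in the fit of all 24 libraries. Of these, 12 were called at some time in the 22 libraries, all but GGPS1, with 10 lower and 2 higher at 48 h. Of all genes, 30.9% were called lower and 33.6% higher in that fit at 48 h. At the head of the pathway, the log2 fold changes at 48 h were -0.40 ± 0.18 for ACAT2, a thiolase of acetyl-CoA, -0.51 ± 0.27 for HMGCS1, the synthase before mevalonate, and -0.61 ± 0.34 for MVK, mevalonate kinase. PMVK, the next kinase, was at 0.16 ± 0.46 and MVD, the decarboxylase after it, at -0.37 ± 0.48. HMGCS1 showed how the replicate 3 libraries of 12 h widened these errors: its control libraries at 12 h had 78.1, 76.7 and 28.3 CPM, while at 48 h control had 202, 196 and 197 CPM and DMF 143, 139 and 136 CPM. In the 22 libraries its log2 fold change at 48 h was -0.51 ± 0.04 and was called. MVK was called lower at all 4 times there (-0.15, -0.52, -0.20 and -0.66), with the block at 12 h (-0.62), and on log2(TPM + 1) at 12 and 48 h (-0.54 and -0.37). PMVK was called higher at all 4 times in the 22 libraries (0.48, 0.28, 0.53 and 0.21). GGPS1, which makes geranylgeranyl diphosphate for protein anchors, was at 0.14 ± 0.20, and SQLE, squalene epoxidase, at -0.45 ± 0.20. In the sterol part, CYP51A1, the lanosterol demethylase, was at -0.18 ± 0.17, NSDHL at -0.28 ± 0.30, HSD17B7 at -0.17 ± 0.17, EBP at -0.38 ± 0.47 and SC5D at -0.35 ± 0.20 on the log2 scale at 48 h. NSDHL and HSD17B7 belong to the demethylation of the sterol ring, EBP is the sterol isomerase and SC5D the desaturase that follows it. On log2(TPM + 1) at 48 h, CYP51A1 (0.05) and HSD17B7 (0.09) had the opposite sign to that on counts. HMGCS1 was at -0.28, MVD at -0.12, NSDHL at -0.05 and SC5D at -0.11 there. Of the 13 enzymes, only MVK, lower, and TM7SF2, higher, passed on that scale at 48 h.

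TM7SF2, a sterol reductase, went the other way at the late times without passing the test. It was at 12.1, 10.5 and 8.74 CPM in control and 20.7, 18.5 and 19.5 CPM in DMF libraries at 24 h, and at 18, 20 and 17.7 against 25.5, 27.9 and 28.2 CPM at 48 h. The groups did not overlap at either time, and the log2 fold changes were 0.90 ± 0.36 and 0.56 ± 0.36 (adjusted p = 0.11 and 0.29, edgeR). Without replicate 3 of 12 h they were 0.90 ± 0.09 and 0.59 ± 0.08, and both were called, as they were on log2(TPM + 1), at 0.81 and 0.76. At 12 h TM7SF2 was called lower with the block (-0.59), in the 22 libraries (-0.41) and on log2(TPM + 1) (-0.44). Reads of ACAT2, MVK and GGPS1 may be mixed with those of genes that share exon bases with them (SOD2 and TCP1, MMAB, and ARID4B and TBCE), since no source used here states whether counting was stranded.

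In the SREBP2 group, INSIG1 was lower with DMF from 24 h and INSIG2 at 48 h, SCAP was higher at 12 and 48 h, and SREBF2 and STARD4 were not called in all 24 libraries. Of the 5 genes, none was called at 6 h (0 higher, 0 lower), 1 was higher at 12 h, 1 lower at 24 h, and 1 higher and 2 lower at 48 h. At an unadjusted p under 0.05 they were 1 and 0, 1 and 1, 1 and 1, and 1 and 2, and DESeq2 gave these same numbers. The 22 libraries gave 1 and 0, 1 and 2, 1 and 3, and 1 and 4. Over the 4 times, between 5.03% and 13.3% of all genes were called in a direction in the 24 libraries and between 23.4% and 33.6% in the 22. Their medians on the log2 scale were 0.02, 0.11, -0.13 and -0.63.

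INSIG1 retains the SCAP and SREBP2 complex in the endoplasmic reticulum and is itself a target of SREBP2. At 6 h it was at 99.9, 102 and 106 CPM in control and 125, 122 and 124 CPM in DMF libraries, above control in all 3 but not called (log2 0.27 ± 0.11, adjusted p = 0.16, edgeR). At 12 h it was at 75.3, 78.7 and 50.4 CPM against 58.2, 58.1 and 52.7 CPM, where replicate 3 of control lay below all DMF libraries. At 24 h control had 171, 187 and 170 CPM and DMF 118, 112 and 117 CPM, and at 48 h 318, 323 and 316 CPM against 189, 197 and 206 CPM. INSIG1 was lower with DMF than in control at both times, with log2 fold changes of -0.60 and -0.69 (SE 0.11 each, adjusted p = 0.0011 and 0.00014, edgeR). INSIG1 was also called in the 22 libraries, higher at 6 h (0.27 ± 0.04) and lower at 12 h (-0.40 ± 0.05). Its late values on log2(TPM + 1) were -0.65 and -0.46 and did not pass (adjusted p = 0.35 and 0.42, limma).

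INSIG2, the second retention protein, overlapped between the groups at 6 h (9.45, 13 and 12 CPM in control, 11.3, 11.5 and 12.1 CPM with DMF) and differed little at 24 h (19.4, 19.1 and 18 CPM against 17, 18 and 16.7 CPM). At 48 h it was at 34.5, 36.6 and 36.9 CPM in control and 19.5, 18.8 and 18.1 CPM in DMF libraries. It was lower with DMF by 0.94 ± 0.15 on the log2 scale there (adjusted p = 9e-05, edgeR), a 1.92-fold difference. INSIG2 was at -0.68 on log2(TPM + 1) and did not pass (adjusted p = 0.17, limma).

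SCAP, the escort protein, was at 95.4, 102 and 95.9 CPM in control and 118, 120 and 130 CPM in DMF libraries at 12 h (log2 0.33 ± 0.06, adjusted p = 0.00082, edgeR). At 6 h DMF lay slightly below control, with 89.7, 91.4 and 90.3 CPM against 92.7, 94.5 and 93.3 CPM, and at 24 h above it, with 103, 104 and 104 CPM against 93.4, 93 and 93.7 CPM. Neither difference passed the test. At 48 h control had 83.1, 88.6 and 84.1 CPM and DMF 102, 99.5 and 103 CPM (log2 0.25 ± 0.06, adjusted p = 0.0051, edgeR), and without replicate 3 of DMF the value was 0.22 and did not pass. Its values at 12 and 48 h on log2(TPM + 1) were 0.35 and 0.50 and did not pass (adjusted p = 0.53 and 0.12, limma).

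SREBF2 itself was at 275, 277 and 272 CPM against 283, 290 and 283 CPM with DMF at 6 h, and at 204, 215 and 122 CPM against 222, 216 and 145 CPM at 12 h. The values were 297, 303 and 289 CPM against 261, 284 and 282 CPM at 24 h, and 429, 437 and 457 CPM against 366, 378 and 379 CPM at 48 h. DMF libraries lay below control without overlap at the last 2 times, but the log2 fold changes of -0.10 ± 0.16 and -0.24 ± 0.16 were not called. Both were called lower in the 22 libraries (-0.10 ± 0.04 and -0.23 ± 0.04, adjusted p = 0.027 and 1.2e-05, edgeR), and on TPM the value at 48 h was -0.01. STARD4, a carrier of cholesterol between membranes, was at 106, 91.9 and 105 CPM in control and 66.9, 64 and 65.2 CPM with DMF at 48 h (log2 -0.63 ± 0.36, adjusted p = 0.23, edgeR). The wide error went with its replicate 3 libraries of 12 h, at 8.88 and 13.4 CPM against 33.4 to 40 CPM in the others of that time. STARD4 was called lower in the 22 libraries at 12, 24 and 48 h (-0.19 ± 0.07, -0.22 ± 0.05 and -0.63 ± 0.06).

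**Figure D3:**
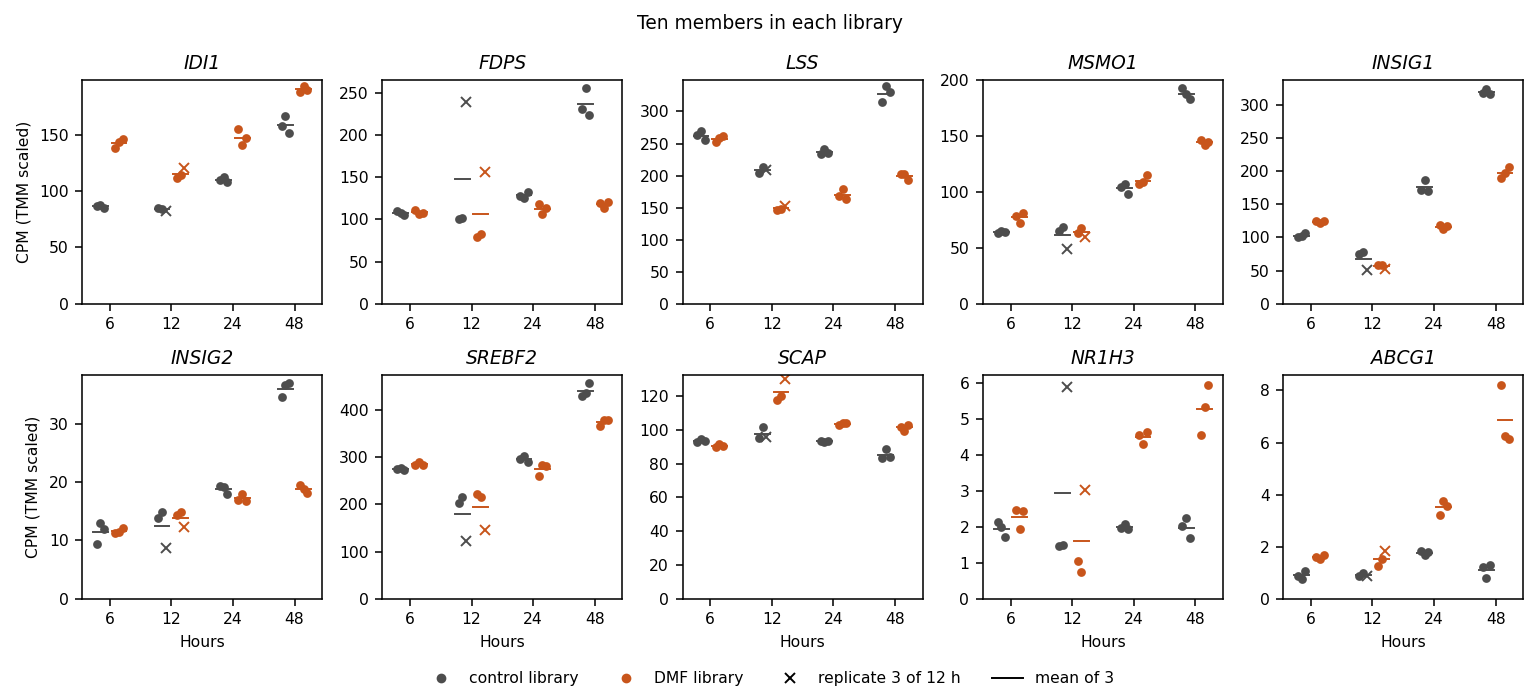
CPM of 10 members in each library by time, with control in grey, DMF in orange, replicate 3 of 12 h as crosses, and a line at the mean of 3 libraries. INSIG1 and INSIG2 reach 316 to 323 and 34.5 to 36.9 CPM in control at 48 h but 189 to 206 and 18.1 to 19.5 CPM with DMF, while ABCG1 reaches 6.15 to 8.21 CPM with DMF.

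In the LXR group, the pump ABCG1 was higher with DMF at every time and the receptor NR1H3 at 48 h, while NR1H2 and MYLIP were not called in all 24 libraries. Of the 4 genes tested, 1, 1, 1 and 2 were called higher at the 4 times and 0 lower (also 0 lower at an unadjusted p under 0.05 and by DESeq2 at each time). In the 22 libraries 3, 3, 3 and 2 were higher and 0, 1, 0 and 1 lower. Of all genes, 5.03% to 13.3% were called in a direction in the 24 libraries and 23.4% to 33.6% in the 22. The group's median log2 fold changes were 0.29, 0.31, 0.68 and 0.77.

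ABCG1 moves cholesterol to high-density lipoprotein particles. It was at 0.883, 0.764 and 1.06 CPM in control and 1.59, 1.54 and 1.7 CPM in DMF libraries at 6 h, and at 0.88, 0.991 and 0.872 CPM against 1.27, 1.51 and 1.84 CPM at 12 h. The values were 1.85, 1.68 and 1.79 CPM in control and 3.22, 3.75 and 3.57 CPM with DMF at 24 h. At 48 h control was at 1.21, 0.815 and 1.29 CPM and DMF at 8.21, 6.26 and 6.15 CPM, so the groups did not overlap at any time. The log2 fold changes were 0.82 ± 0.18, 0.73 ± 0.18, 0.99 ± 0.16 and 2.59 ± 0.18 (adjusted p = 0.0047, 0.0076, 0.00034 and 4e-09, edgeR), the last a 6.02-fold difference. ABCG1 had few reads, with 18 to 61 expected counts in each control library and 27, 245 and 228 in the DMF libraries of 48 h, the first of them the shallow library. Without that library the call at 48 h was kept. The call at 12 h was lost in the fit of 12 h with the block (0.72, adjusted p = 0.069, edgeR) and on log2(TPM + 1) (0.23, adjusted p = 0.14, limma).

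NR1H3 was at 2.13, 1.99 and 1.72 CPM in control and 2.47, 1.93 and 2.45 CPM in DMF libraries at 6 h, which overlapped. At 12 h it was at 1.48, 1.49 and 5.89 CPM against 1.06, 0.753 and 3.03 CPM, so both replicate 3 libraries stood above the others and DMF lay below control in each same-numbered pair. The log2 fold change there was -0.90 ± 0.46 and not called, but NR1H3 was called lower at 12 h with the block (-0.82, adjusted p = 0.028, edgeR) and in the 22 libraries (-0.70 ± 0.22, adjusted p = 0.0087, edgeR), opposite to the later times. At 24 h the values were 1.97, 2.07 and 1.94 CPM against 4.56, 4.32 and 4.63 CPM, a 2.26-fold difference without overlap that was not called (log2 1.18 ± 0.44, adjusted p = 0.083, edgeR). At 48 h control had 2.03, 2.24 and 1.68 CPM and DMF 4.56, 5.34 and 5.96 CPM (log2 1.45 ± 0.45, adjusted p = 0.022, edgeR). That call was lost without any of 5 libraries of 48 h, the 3 controls and replicates 2 and 3 of DMF (1.34 to 1.53), whereas in the 22 libraries NR1H3 was called higher at both late times (1.18 ± 0.13 and 1.5 ± 0.14). On log2(TPM + 1) NR1H3 was at -0.43 at 12 h and not called (adjusted p = 0.095, limma). It was called higher on that scale at 24 and 48 h (0.96 and 1.34). NR1H3 had few reads, with 29 to 142 expected counts per library at 12 h and 15 in replicate 1 of DMF at 48 h. It shares exon bases with ACP2 on the opposite strand, and their reads may be mixed.

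NR1H2 was at 64.5, 64.7 and 61.2 CPM in control and 66.9, 67.8 and 74 CPM in DMF libraries at 6 h, and at 56.6, 61.3 and 170 against 72.7, 77.1 and 160 CPM at 12 h. At 24 h the DMF libraries lay above control, with 78, 75 and 72.6 CPM against 58.9, 58.4 and 56 CPM, and at 48 h the groups overlapped (70.8, 74.1 and 74.4 CPM against 70.2, 72 and 63.7 CPM). Its log2 fold changes of 0.13, 0.10, 0.38 and 0.09 had SEs of 0.31 and none was called. MYLIP was at 5.3, 5.56 and 5.31 CPM against 7.23, 6.79 and 6.7 CPM with DMF at 6 h and at 13.7, 14.8 and 14.8 CPM against 12.8, 12.9 and 11.8 CPM at 48 h. The log2 fold changes were 0.36 ± 0.31 and -0.21 ± 0.31. NR1H2 was called higher in the 22 libraries at 6, 12 and 24 h (0.13, 0.35 and 0.38) and MYLIP higher at 6 and 12 h (0.36 and 0.42) and lower at 48 h (-0.21). On log2(TPM + 1) NR1H2 was called higher at 12, 24 and 48 h (0.24, 0.32 and 0.33).

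The control cultures changed over the same hours, and the 6 members that were lower with DMF at 48 h had all risen in control by then. Both comparisons use the same control libraries of 48 h, so they are not independent. The rise was not particular to these 6: IDI1, higher with DMF at 48 h, was 1.83-fold higher in control at 48 h than at 6 h. From 6 to 48 h in control, 19 of 28 members rose (21.6% of all genes) and 0 fell (20.4% of all genes; 1 member, SCAP, at an unadjusted p under 0.05 and 0 by DESeq2). Among them were 14 of the 19 enzymes, 4 of the 5 SREBP2 genes and MYLIP. In DMF cultures 11 members were called higher at 48 h than at 6 h (21.2% of all genes) and 1, LSS, lower (18.4%), with 5 higher and 1 lower among the enzymes. The median log2 fold change of the enzymes over this interval was 0.62 in control and 0.21 in DMF cultures, against 0.01 for all genes in both. The 22 libraries gave 24 higher and 1 lower in control (38.2% and 36.8% of all genes) and 21 and 2 in DMF cultures (37.4% and 35.7%). By 24 h, 6 members had risen in control (9.29% of all genes), IDI1, FDFT1, MSMO1, INSIG1, INSIG2 and ABCG1, and 0 had fallen (7.53%; 1 at an unadjusted p under 0.05 and 1 by DESeq2), or 16 and 3 in the 22 libraries (28.8% and 27.7%). Leaving out 1 library lost, in control, the call of HMGCS1 (without replicate 1 of 6 h, 0.81), GGPS1 (0.52 to 0.63), SQLE (0.53 to 0.57), CYP51A1 (0.44 to 0.47) and SC5D (0.57 to 0.58), for 1, 3, 4, 4 and 2 libraries. In DMF cultures it lost that of GGPS1 (0.51 to 0.59), SCAP (0.12 to 0.16), NR1H3 (1.11 to 1.29) and MYLIP (0.80 to 0.87), for 14, 21, 13 and 6 libraries of any group.

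Summed over the 19 enzymes, control went from 1417 to 1431 CPM at 6 h to 1576 to 1616 CPM at 24 h and 2281 to 2461 CPM at 48 h. DMF cultures went from 1598 to 1616 CPM at 6 h to 1489 to 1545 CPM at 24 h and 1801 to 1847 CPM at 48 h. In CPM the sum was thus higher with DMF than in control at 6 h and lower at 24 and 48 h, without overlap between libraries at these times, while at 12 h the groups overlapped (1230 to 1791 CPM in control, 1168 to 1533 CPM with DMF). In TPM the sums overlapped at 6 h, at 1106 to 1120 in control and 1103 to 1130 with DMF. At 48 h they were 1787 to 1859 TPM in control and 1623 to 1637 TPM with DMF, and at 24 h 1298 to 1322 and 1233 to 1262 TPM, again lower with DMF without overlap. INSIG1 rose 3.11-fold in control and 1.6-fold in DMF cultures, INSIG2 3.14-fold and 1.61-fold, and MSMO1 2.92-fold and 1.87-fold. FDPS rose 2.2-fold in control, and in DMF cultures its ratio of 1.09 was not called. LSS rose 1.25-fold in control (log2 0.32 ± 0.06, adjusted p = 0.00038, edgeR) and fell by 0.37 ± 0.06 with DMF (adjusted p = 0.0001, edgeR). TM7SF2 had the largest fold rise among the enzymes in both, 3.73-fold in control and 6.54-fold with DMF, and SREBF2 rose 1.61-fold in control (1.31 in DMF cultures, not called). ABCG1 did the reverse, with 4.14-fold more at 48 h than at 6 h in DMF cultures and a ratio of 1.22 in control that was not called. Time in culture and the harvest of each time point cannot be told apart, and these comparisons share their control libraries with those of DMF against control.

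**Figure D4:**
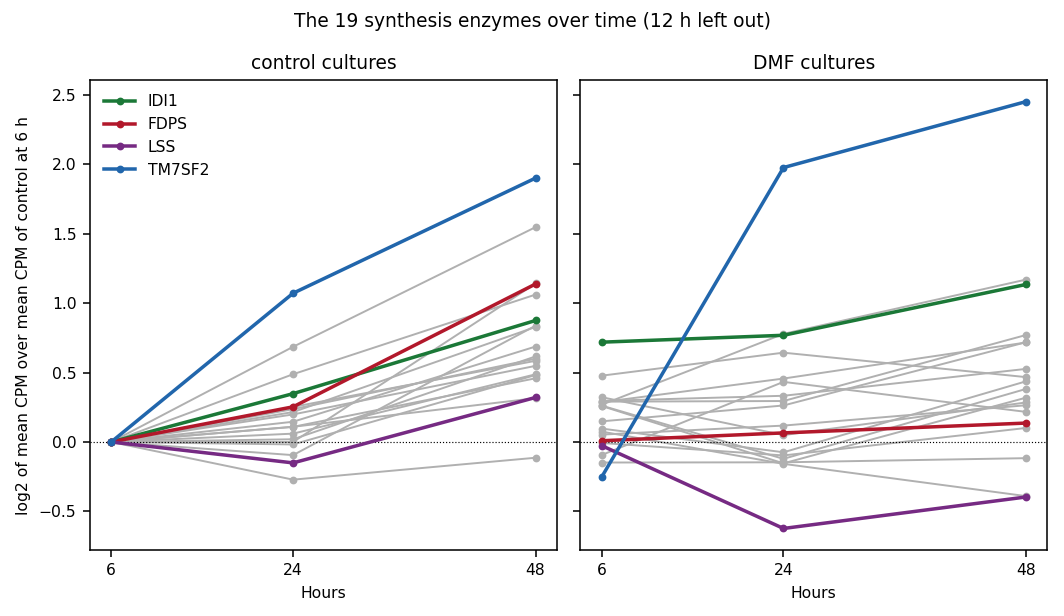
Log2 of the mean CPM of each of the 19 synthesis enzymes over its mean in control at 6 h, in control (left) and DMF cultures (right) at 6, 24 and 48 h, 1 line per enzyme with 4 named; 12 h is left out because of its replicate 3 libraries. In control 18 of 19 lines end above 0 at 48 h. With DMF, FDPS stays near 0, while LSS and, among the unnamed lines, MVK and NSDHL end below 0.

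The effect of DMF itself was tested for a difference between times. Across the 4 times jointly, 10 members were called (15% of all genes): IDI1, FDFT1, LSS, MSMO1, DHCR7, SCAP, INSIG1, INSIG2, NR1H3 and ABCG1. Between 48 h and 6 h, 2 members had a higher log2 fold change with DMF at the later time (6.47% of all genes) and 7 a lower one (5.88%). INSIG1 differed by -0.96 ± 0.16 (adjusted p = 0.00046, edgeR), LSS by -0.69 ± 0.09 (adjusted p = 3.4e-05) and ABCG1 by 1.77 ± 0.25 (adjusted p = 9.3e-05). Between 24 h and 6 h, 3 were lower (2.89% of all genes), INSIG1, LSS and DHCR7, and 0 higher (3.59%; 2 at an unadjusted p under 0.05 and 0 by DESeq2). Between 48 h and 24 h, ABCG1 was higher by 1.60 ± 0.24 (1.65% of all genes were higher) and INSIG2 lower, at -0.81 ± 0.21 (1.47% lower). In the 22 libraries the counts higher and lower were 4 and 21 (26.7% and 24.2% of all genes), 5 and 11 (22.5% and 21.9%), and 1 and 20 (21.2% and 20%) for these 3 pairs of times, and 26 jointly (69.1%). Some of these calls were lost when any 1 of several libraries was left out. That of DHCR7 was lost at 24 h against 6 h for 7 libraries (-0.39 to -0.36) and at 48 h against 6 h for 2 libraries (-0.35). That of SCAP at 48 h against 6 h was lost for 21 libraries (0.25 to 0.30). That of INSIG2 at 48 h against 24 h was lost for 5 libraries (-0.84 to -0.78). On log2(TPM + 1), 1 of the 9 calls for 48 h against 6 h, 0 of the 3 for 24 h against 6 h and 1 of the 2 for 48 h against 24 h also passed, in each case ABCG1.

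Genes that act beside the members were read from the same fit. For these genes, rose and fell mean higher or lower with DMF than in control at the same time. Of 12 further genes that act on SREBP processing or on INSIG decay, 3, 2, 2 and 4 were called higher and 0, 1, 1 and 0 lower at 6, 12, 24 and 48 h (the counts of 0 were also 0 at an unadjusted p under 0.05 and by DESeq2). Counts in the 22 libraries were 7, 3, 4 and 8 higher and 0, 2, 2 and 2 lower. For this and the next 3 lists, the share of all genes called in a direction was 5.03% to 13.3% in the 24 libraries and 23.4% to 33.6% in the 22. Their median log2 fold changes were 0.18, 0.07, -0.02 and 0.32. VCP, the segregase that pulls marked proteins from the membrane, rose at the 4 times by 0.40, 0.60, 0.28 and 0.50 on the log2 scale, and UBE2G2, a ubiquitin-conjugating enzyme of the same decay route, by 0.55 at 48 h. SREBF1, which encodes the related factor of fatty acid synthesis, fell at 12 and 24 h, with -0.48 and -0.65, at 24 h from 77.3 ± 2.08 to 49.1 ± 1.21 CPM (SD, n = 3). Calls in this list named after their values were seen were C12orf49 (now SPRING1) at 6 h and ERLIN2 at 48 h, both higher. Leaving out 1 library lost the call of VCP at 24 h for 16 libraries (0.23 to 0.29) and of UBE2G2 at 48 h for 1, replicate 3 of control at that time (0.50).

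Of 19 genes of sterol transport, ester turnover and side branches, 0, 0, 1 and 5 were called higher and 3, 2, 2 and 4 lower at the 4 times (2 and 1 were higher at 6 and 12 h at an unadjusted p under 0.05, and 1 and 1 by DESeq2). Counts in the 22 libraries were 5, 6, 8 and 11 higher and 5, 6, 5 and 5 lower. The list's median log2 fold changes were 0.07, 0.07, 0.05 and 0.11. The largest changes were in GRAMD1B, one of the proteins that carry cholesterol from the plasma membrane to the endoplasmic reticulum. It fell at all 4 times, with log2 fold changes of -0.63, -1.04, -1.92 and -2.29, and at 48 h it was at 22.4 ± 0.129 CPM in control and 4.27 ± 1.33 CPM with DMF (SD, n = 3; adjusted p = 4.3e-09, edgeR). Its relative GRAMD1A fell as well, with -0.49, -0.32, -0.54 and -1.24, at 48 h from 63.8 ± 3.47 to 27.1 ± 0.511 CPM, and its call at 12 h was lost without replicate 1 of control or replicate 1 or 2 of DMF at that time (-0.31, -0.28 and -0.26) and with the block (-0.33). Further calls, named after their values were seen, were NPC2 higher at 24 h, POR, DHDDS and PDSS1 higher and ERG28 and FNTA lower at 48 h.

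Of 8 further LXR partners and responsive genes tested, 0 were called higher at any time in all 24 libraries (0 also at an unadjusted p under 0.05 and by DESeq2), and 0, 4, 2 and 1 lower (1 at 6 h at an unadjusted p under 0.05 and by DESeq2). Counts in the 22 libraries were 1, 3, 0 and 1 higher and 3, 4, 7 and 7 lower. Medians for these genes were -0.08, -0.22, -0.26 and -0.31. RXRA, the partner with which LXR binds DNA, fell at 12, 24 and 48 h, with -0.92, -0.85 and -1.11, at 48 h from 9.03 ± 1.19 to 3.99 ± 0.932 CPM. Its call at 12 h was lost without replicate 2 of DMF (-0.77), and that at 24 h without replicate 1 or 2 of control or replicate 3 of DMF (-0.81, -0.79 and -0.75). LPCAT3 and ABCA7, a phospholipid enzyme and a lipid pump, fell at 12 h, with -0.51 and -1.15, and SREBF1, which stands in both lists, was the other one. Without replicate 3 of control at 12 h the value of ABCA7 was -0.68. Among 14 tested genes of fatty acid synthesis, 0, 0, 1 and 1 were higher and 2, 3, 4 and 3 lower (2 and 1 were higher at 6 and 12 h at an unadjusted p under 0.05, and 0 and 1 by DESeq2). Counts in the 22 libraries were 6, 5, 4 and 3 higher and 3, 7, 9 and 8 lower. The median log2 fold changes were 0.09, -0.15, -0.30 and -0.14. FADS1, a fatty acid desaturase, fell at the 4 times, with -0.56, -1.55, -0.55 and -0.91. FADS2, another desaturase, was at 103 ± 6.24 CPM in control and 34.8 ± 2.54 CPM with DMF at 48 h (log2 -1.56 ± 0.13, adjusted p = 5e-08, edgeR). ELOVL6, an elongase, fell at 6 and 12 h, with -0.74 and -1.35, and TMEM97, a sterol-responsive membrane protein, at 24 and 48 h, with -0.39 and -0.71. The early calls of FADS1 (without replicate 2 of control at 6 h, -0.49) and ELOVL6 (for 4 libraries of 6 h, -0.72 to -0.70) and that of TMEM97 at 24 h (for 13 libraries, -0.43 to -0.38) were lost when 1 library was left out. The other calls of this list were ACSS2 (lower at 12 h, higher at 24 h), FASN (lower at 24 h) and ACSL1 (higher at 48 h), named after their values were seen. Of the named genes in these 4 lists, the calls of VCP at 6, 12 and 24 h, UBE2G2 at 48 h, SREBF1 at 12 h, GRAMD1A at 6, 12 and 24 h, GRAMD1B at 6 and 12 h, RXRA and LPCAT3 at 12 h, FADS1 at 6, 24 and 48 h, ELOVL6 at 6 and 12 h and TMEM97 at 24 and 48 h did not pass on log2(TPM + 1).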

How the data were processed

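Total RNA of the 24 HBL-1 libraries (Qiagen RNeasy Mini Kit, standard Illumina protocols, per the labels' protocols) had been aligned and counted by the authors. HISAT, HISAT2, RSEM and GRCh38.p12 are named in the submitters' processing notes, without versions, and whether strand was used in counting is not given in the sources used here. The deposited tables, 1 per library with 21831 genes, hold RSEM's expected counts, of which 6.16% to 11.53% per library were not whole numbers, and TPM and FPKM; per the file headers each also gives gene and effective lengths in bases. FPKM, which the authors deposited beside these, was used for no result. TPM served for levels between genes and as an alternative scale.

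Expected counts were rounded and tested in edgeR 4.0.16 (R 4.3.3), with filterByExpr by group, TMM scaling and a quasi-likelihood fit of all 24 libraries with 1 mean per group (16 residual degrees of freedom). 13419 genes were tested, p-values were adjusted over all of them by Benjamini-Hochberg, and a gene was called at 0.05. A prior count of 2 was used only in log CPM, for the library weights and the check of replicate pairs. The CPM and edgeR fold changes given did not use it. Depth ranged from 2870751 to 40906596 expected counts per library. Alternatives were DESeq2 1.42.0, its size factors, no low-count filter (18123 genes), the 22 libraries without replicate 3 of 12 h (13606 genes), library weights in limma 3.58.1, the groups compared alone, limma on log2(TPM + 1) and log2(TPM + 0.1), a replicate block, and each library left out. The fitting scripts were tested on counts simulated with the depths and dispersions of the 22 libraries, with genes changed only in DMF at 24 h. The fit of all 24 libraries was not simulated.

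Control and DMF share replicate numbers. Of 12 same-numbered pairs of the same time, the 3 of 12 h deviated together (correlations 0.76, 0.755 and 0.896, but 0.039 between control and DMF without replicate 3), and no other pair exceeded 0.1, so blocked counts stand beside the result at 12 h only. The members and the lists of other genes were chosen with earlier results of these data known. All members are named; values in every library are given for members called at 2 or more times and for NR1H2, NR1H3, SREBF2 and SCAP, and others are added where a result turns on them; from each other list up to 4 genes with the smallest p were named, some of which are counted in their lists but not reported here by name. The comparisons of 48 h with 6 h within DMF, and of the DMF effect between these times, were added after values were seen. Gene positions, shared exons and start sites come from GENCODE v29 and RefSeq (GRCh38.p14).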

Additional observations from a re-analysis of the deposited data

Results flagged for a closer look

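The response to DMF differed between times in the test of the difference itself (edgeR quasi-likelihood test, Benjamini-Hochberg over all genes) for 9 members, given here as the later minus the earlier log2 fold change. From 6 to 24 h, INSIG1 moved by -0.87 (adjusted p = 0.0021), LSS by -0.45 (0.0039) and DHCR7 by -0.37 (0.032). From 24 to 48 h, ABCG1 moved by 1.60 (0.0008) and INSIG2 by -0.81 (0.036). From 6 to 48 h, ABCG1 moved by 1.77 (9.3e-05), SCAP by 0.30 (0.03), INSIG1 by -0.96 (0.00046), INSIG2 by -0.96 (0.0041), LSS by -0.69 (3.4e-05), MSMO1 by -0.65 (0.0038), FDFT1 by -0.63 (0.0031), IDI1 by -0.46 (0.002) and DHCR7 by -0.36 (0.021). Of these differences, only those of ABCG1 also passed on log2(TPM + 1); from 6 to 48 h FDFT1 was at -0.24, MSMO1 at -0.27, LSS at -0.21 and IDI1 at -0.09 there, and DHCR7 had the opposite sign, at 0.02. The difference of SCAP was lost when any of 21 libraries was left out (0.25 to 0.30).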

How the results depend on the processing

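Counts of members called higher and lower with DMF at 6, 12, 24 and 48 h (3 and 0, 4 and 1, 2 and 2, 4 and 6 on all 24 libraries) changed most with the treatment of the replicate 3 libraries of 12 h. Without them, 22 libraries gave 13 and 1, 9 and 8, 10 and 8, and 6 and 19. Library weights gave 13 and 2, 10 and 8, 13 and 8, and 19 lower at 48 h. A fit of only the groups compared gave 14 and 2, 0 and 0, 10 and 8, and 19 lower. log2(TPM + 1) gave 1 higher at 6 h (0 with a pseudocount of 0.1), 1 and 3 at 12 h, 4 and 1 at 24 h, and 2 lower at 48 h, as did log2(TPM + 0.1) at the last 3 times. DESeq2 gave 5 higher at 6 h and 2 lower at 12 h. The share of all genes called was counted only in the main fits of 24 and of 22 libraries. For the other settings, here and below, counts of members cannot be set against such a share.

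The replicate block in the fit of 12 h alone gave 2 higher and 5 lower. The block in all 24 libraries gave 3 and 1 at 12 h, and moved no count of any comparison by more than 1.5 times.

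For the change of the DMF effect, 24 h minus 6 h (0 and 3), the 22 libraries gave 5 and 11, library weights and the groups compared alone 5 and 12 each, and both TPM scales 2 and 0. For 48 h minus 24 h (1 and 1), lower counts were 20 in the 22 libraries, 18 by weights (2 higher), 14 in the groups alone, 3 by DESeq2, 2 with its size factors and 0 without the low-count filter. For 48 h minus 6 h (2 and 7), the 22 libraries, weights and the groups alone gave 4 and 21 each, both TPM scales 4 and 1, and size factors and no filter 1 higher each. The joint test called 26 of 28 in the 22 libraries and by weights, and 4 on both TPM scales, against 10. For control at 24 h against 6 h (6 and 0), the 22 libraries gave 16 and 3, weights 17 and 3, the groups alone 17 and 4, both TPM scales 3 higher, and DESeq2 1 lower. For control at 48 h against 6 h (19 and 0), lower counts were 1 in the 22 libraries, 2 by weights and 1 in the groups alone. For DMF at 48 h against 6 h (11 and 1), the 22 libraries and the groups alone gave 21 and 2 each, weights 20 and 2, and log2(TPM + 1) 17 and 0 (0 lower also with 0.1).

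Leaving out each library in turn gave 2 to 7 higher and 0 to 0 lower at 6 h, 3 to 8 and 1 to 6 at 12 h, 2 to 4 and 2 to 2 at 24 h, and 2 to 5 and 5 to 12 at 48 h. For the differences between times it gave 0 to 1 and 2 to 4 (24 h minus 6 h), 1 to 1 and 0 to 3 (48 h minus 24 h), 1 to 3 and 6 to 10 (48 h minus 6 h), and 7 to 14 in the joint test. Over time it gave 6 to 8 and 0 to 1 (control at 24 h), 15 to 20 and 0 to 1 (control at 48 h), and 7 to 14 and 1 to 2 (DMF at 48 h). Without replicate 3 of control at 12 h the higher counts were 7 at 6 h, 8 at 12 h and 4 at 24 h, and 12 members were lower at 48 h. Without replicate 3 of DMF at 12 h, 6 were lower at 12 h and 4 higher at 24 h. Without replicate 2 or 3 of DMF at 48 h, 2 were higher at 48 h.

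At 12 h the values of PMVK (-0.10), MVD (-0.30) and NSDHL (-0.02) changed sign. Without replicate 3 of control at 12 h they were 1.0, 0.94 and 0.62, without replicate 3 of DMF at 12 h -0.83, -1.05 and -0.45, with library weights 0.29, 0.23 and 0.21, and in the 22 libraries PMVK was at 0.28 and NSDHL at 0.21. For 48 h minus 6 h, TPM gave 0.02 on both scales for DHCR7 and 0.33 and 0.34 for NR1H2. The cause of these shifts was not tested. ABCA1, with 18 counts in all 24 libraries together, was not tested. The DMF library of 48 h with 2870751 counts held 27 counts of ABCG1.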
